A study of Mus musculus with 6 samples.

Results

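The 56 genes described here encode the cell cycle and mitosis machinery, from the D cyclins that open the cycle to the kinesins that build and divide the spindle. They were listed by symbol, as genes known for these functions. All 56 are among the 14015 genes with a symbol in the deposited expression table. The tissue was injured mouse quadriceps. Part of the muscle was cut out (volumetric muscle loss), no implant was placed, and the muscle was collected on day 7. In the study's methods, the gap of control injuries was filled with sterile saline and both legs were operated on. RNA came from 3 WT mice (C57BL/6) and from 3 ΔdblGATA mice, which the labels call GATA-1 mutant. The ΔdblGATA allele removes a GATA site in the promoter of Gata1 in every cell of the mouse and leaves the animals without eosinophils. All 6 mice had the same injury, and no uninjured muscle and no implant-treated muscle was part of the sequencing analysed here. The study's methods describe the operated WT mice as young adult females, and the labels give neither age nor sex for either genotype.

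The values used are the authors' mean of log2 CPM for each gene (CPM are read counts scaled to the same library total) over the 6 libraries. Both genotypes are pooled in each mean, so a level carries no error and no replicate count. WT and ΔdblGATA mice are not compared with each other anywhere in what follows. For the same reason, an order of genes by level is a description of these means, and whether neighbours in an order differ beyond the spread between mice was not tested.

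A cell that divides passes through ordered steps, each run by its own set of proteins. In G1, D cyclins with Cdk4 and E cyclins with Cdk2 phosphorylate the retinoblastoma protein, which then releases E2F factors to switch on the genes of DNA replication. The origin of replication is licensed by Cdc6 and Cdt1, which load the MCM helicase. Cyclin A and cyclin B with Cdk1 then bring the cell into mitosis, the spindle checkpoint holds it until every chromosome is attached, and the anaphase-promoting complex ends mitosis by marking cyclin B for destruction. Many replication genes carry E2F elements in their promoters, while many mitotic genes carry a cell cycle homology region (CHR) and CCAAT boxes bound by NF-Y, through which the DREAM and MuvB complexes repress or activate them. In injured muscle, the dividing cells are known to include satellite cells and their myoblast progeny, fibroblast-lineage cells, endothelium and leukocytes, whereas mature fibres have left the cycle.

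Promoter sequence was available for 45 of the 56 members, as windows of 300 bases from 250 before to 50 after the annotated start of transcription (RefSeq, build GRCm38.p6). The stretches below were chosen because they hold the elements known from mitotic and from replication genes, whose counts by role are given further on. Each is written 5′ to 3′ on the strand of the gene and ends before the first transcribed base. Capitals mark a CHR word (TTTGAA or TTCGAA, or the reverse TTCAAA), an NF-Y box (CCAAT, or the reverse ATTGG) or an E2F word. The first set shows CHR words of genes for chromatin proteins, mitotic entry, checkpoint, exit and the spindle.
Mki67, chr7:135716447-135716502, minus strand: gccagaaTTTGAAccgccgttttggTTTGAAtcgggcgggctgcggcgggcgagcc
Top2a, chr11:99024190-99024237, minus strand: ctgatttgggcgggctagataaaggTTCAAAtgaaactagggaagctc
Hmgb2, chr8:57511788-57511842, plus strand: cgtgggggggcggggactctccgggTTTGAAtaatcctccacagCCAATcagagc
Cdk1, chr10:69352913-69352952, minus strand: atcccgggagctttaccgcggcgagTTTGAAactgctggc
Cdc20, chr4:118437344-118437386, minus strand: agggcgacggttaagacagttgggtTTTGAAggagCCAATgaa
Bub3, chr7:131560302-131560357, plus strand: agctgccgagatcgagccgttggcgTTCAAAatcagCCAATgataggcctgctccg
Ube2c, chr2:164769875-164769928, plus strand: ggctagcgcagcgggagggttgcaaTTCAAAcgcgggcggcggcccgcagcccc
Kif11, chr19:37376338-37376381, plus strand: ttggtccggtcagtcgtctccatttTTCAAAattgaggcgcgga
Kif22, chr7:127042421-127042462, minus strand: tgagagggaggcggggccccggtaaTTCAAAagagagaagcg

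In Cdc20, Bub3 and Hmgb2, a CHR word and an NF-Y box stood within the same stretch. In Mki67, 2 CHR words in the same orientation began 116 and 98 bases before the start. The Bub3, Top2a, Ube2c, Kif11 and Kif22 stretches carry the CHR word in the reverse orientation. The second set shows E2F words (TTTCCCGC or TTTCGCGC or TTTGCCGC or TTTGGCGC, on either strand) in genes for replication and for cyclin-dependent kinases.
Cdc6, chr11:98907988-98908045, plus strand: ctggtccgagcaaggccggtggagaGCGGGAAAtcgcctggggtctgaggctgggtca
Mcm5, chr8:75109335-75109392, plus strand: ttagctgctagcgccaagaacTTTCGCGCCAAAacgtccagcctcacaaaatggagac
Mcm6, chr1:128359720-128359777, minus strand: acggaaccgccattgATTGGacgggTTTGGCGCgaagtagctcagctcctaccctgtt
Mcm7, chr5:138172016-138172073, minus strand: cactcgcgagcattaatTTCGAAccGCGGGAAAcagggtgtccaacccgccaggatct
Cdk1, chr10:69353011-69353068, minus strand: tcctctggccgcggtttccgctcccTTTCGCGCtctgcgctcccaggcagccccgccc
Cdk2, chr10:128705159-128705216, minus strand: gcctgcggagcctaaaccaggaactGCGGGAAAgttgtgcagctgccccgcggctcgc

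The Mcm5 stretch holds 2 E2F words on opposite strands that share bases, so its capitals run together. The Mcm7 stretch holds a CHR word and an E2F word separated by 2 bases. A matching word is a description of the letters in these windows, and no binding was measured.

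Cell cycle genes sat low in this muscle RNA as a group. Their median was 2.84 mean log2 CPM against 4.03 over all genes listed (difference -1.19), and 15 of the 56 lay above that median. The levels ran from 6.33 for Ccnd3 to -1.99 for Kif20b. Of the 56, 5 stood in the top 25% of all genes and 16 in the bottom 25%. Their geometric mean levels summed to 761 CPM, against 924023 CPM over all genes. In bulk tissue, the share of dividing cells and the RNA of these genes per cell cannot be told apart in such levels.

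**Figure D1:**
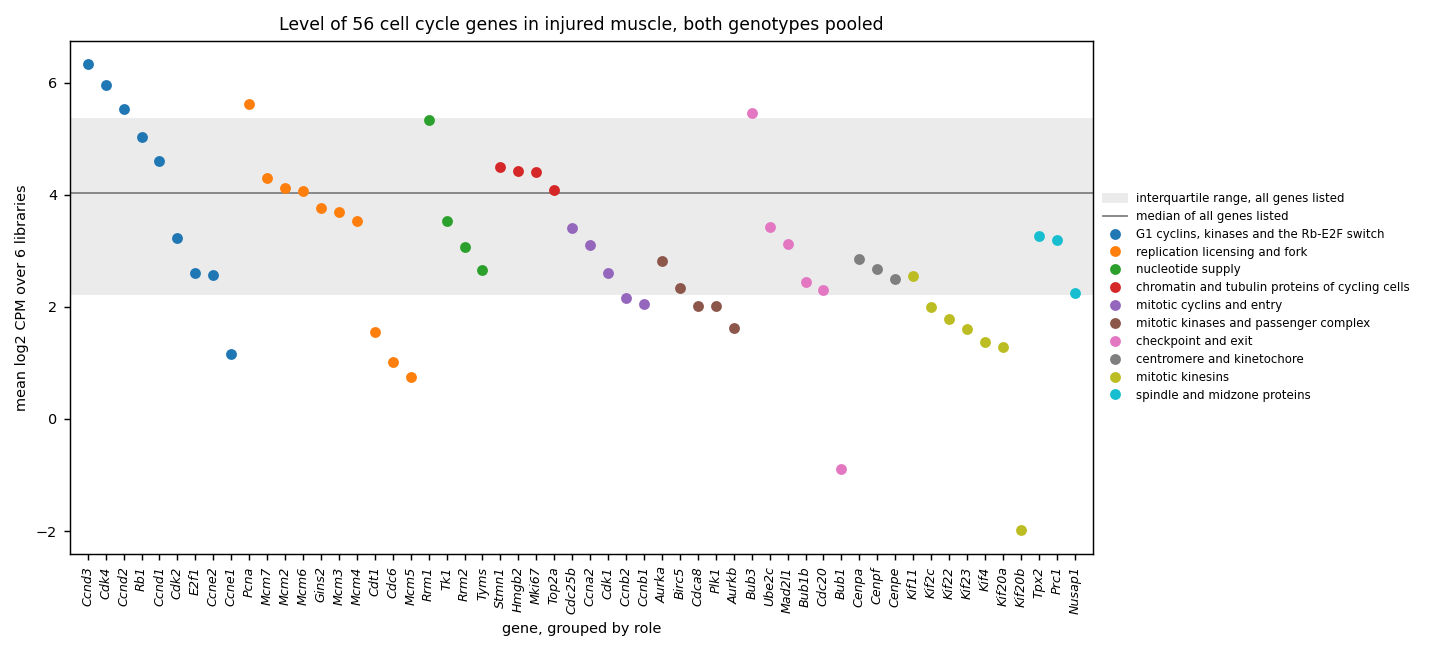
Mean log2 CPM of each of the 56 cell cycle genes over the 6 libraries, with both genotypes pooled, one point per gene, coloured by role and ordered by level within each role; the line is the median of all genes listed and the grey band their interquartile range. Ccnd3, Cdk4, Pcna, Ccnd2 and Bub3 lie above the grey band, the mitotic kinesins lie at or below 2.55, and Bub1 and Kif20b are the points below 0.

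The G1 genes had the highest median of the roles before scaling by length. It was 4.61 over 9 genes, which is 0.58 above the all-gene median, and 5 of the 9 lay above it. Per kb the difference was 0.43 on the longest and -0.11 on the median coding transcript, so its direction turned on the latter. Ccnd3, a D cyclin, was at 6.33, higher than 88.0% of all genes. Cdk4, the kinase partner of the D cyclins, was at 5.95. The other D cyclins, Ccnd2 and Ccnd1, were at 5.53 and 4.61, so all 3 D cyclins lay above the all-gene median. Rb1, the retinoblastoma protein that holds E2F in check, was at 5.03.

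The partners that act later in G1 were lower. Cdk2, the kinase that cyclin E activates, was at 3.23. E2f1, a transcription factor that switches on replication genes, was at 2.60. The E cyclins Ccne2 and Ccne1 were at 2.57 and 1.16, both in the lower part of the table.

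The replication genes spread widely around a median of 3.73 over 10 genes (difference from the all-gene median -0.29). Pcna, the sliding clamp that holds the polymerase on DNA, was at 5.61 and was the highest. The helicase subunits Mcm7, Mcm2 and Mcm6 were at 4.30, 4.11 and 4.07, close to the all-gene median. The subunits Mcm3 and Mcm4 followed at 3.70 and 3.53. Mcm5, the remaining subunit of the same helicase in this set, was at 0.75, the lowest replication gene. Gins2, a subunit of the GINS complex that joins the helicase at the fork, was at 3.77. The licensing factors Cdt1 and Cdc6 were low, at 1.55 and 1.02.

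Among the genes of nucleotide supply, Rrm1 stood apart at 5.33. It encodes the large subunit of ribonucleotide reductase, which makes deoxynucleotides. The small subunit Rrm2, the subunit known to be made mainly in S phase, was at 3.06. Thymidine kinase Tk1 was at 3.53 and thymidylate synthase Tyms, which makes dTMP, was at 2.65. The median of the 4 genes was 3.29, a difference of -0.73 from the all-gene median. Per kb the direction turned, to 0.19 on the longest and 0.50 on the median coding transcript. The median transcripts of Tyms and Rrm2 were short, at 559 and 841 bases against 3163 and 2193 for the longest.

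The chromatin and tubulin proteins used as marks of cycling cells lay together, all 4 above the all-gene median before scaling by length and 2 of 4 above it per kb of the longest transcript. Stmn1, which takes apart microtubules, was at 4.50. Hmgb2, a chromatin protein of the HMG-box family, was at 4.43. Mki67, which coats mitotic chromosomes and is the Ki-67 antigen, was at 4.41, and Top2a, the topoisomerase that untangles sister chromatids, was at 4.08. Before scaling by length, these 4 differed by less than 1 log2 step in all, the narrowest range among the role groups with at least 4 genes. Per kb of the longest transcript they ran from 4.41 for Stmn1 to 1.08 for Mki67. That range was wider than the one of the mitotic entry genes, from 1.77 to 0.47.

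Genes for mitotic entry had a median of 2.60 over 5 genes, and none lay above the all-gene median. Cdc25b, a phosphatase that activates Cdk1, was at 3.40. Ccna2, cyclin A, was at 3.11 and Cdk1, the mitotic kinase itself, at 2.60. The B cyclins Ccnb2 and Ccnb1 were at 2.16 and 2.06. The mitotic kinases and their partners were lower still, with a median of 2.01. Aurka, the kinase of spindle poles, was at 2.81. Birc5 (survivin) and Cdca8 (borealin), subunits of the chromosomal passenger complex, were at 2.34 and 2.01. Plk1, a kinase that acts throughout mitosis, was at 2.01, and Aurkb, the kinase of the passenger complex, was the lowest of the group at 1.63.

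The checkpoint and exit genes covered the widest range of any role. Bub3, which brings the Bub kinases to the kinetochore, was at 5.46. Ube2c, the ubiquitin-conjugating enzyme of the anaphase-promoting complex, was at 3.42 and Mad2l1, the checkpoint protein that inhibits Cdc20, at 3.13. Bub1b, the BubR1 subunit of the checkpoint complex, was at 2.45, and Cdc20, the activator of the anaphase-promoting complex, at 2.29. Bub1, the checkpoint kinase, was at -0.89, below 0 and higher than 3.05% of all genes.

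The centromere genes were close to each other before scaling by length. Cenpa, the histone H3 variant that marks centromeres, was at 2.86, Cenpf, a large kinetochore protein, at 2.67 and Cenpe, the kinetochore motor, at 2.50. Of the spindle proteins, Tpx2, which activates Aurora A, was at 3.27. Prc1, which bundles microtubules at the midzone, was at 3.20, and Nusap1, a spindle microtubule-associated protein, was at 2.24.

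The mitotic kinesins had a median of 1.60 over 7 genes, the lowest of the roles before scaling by length (difference from the all-gene median -2.43), and none lay above the all-gene median. Per kb of the longest transcript the centromere genes were lower, with a difference of -2.76 against -2.44 for the kinesins. Kif11 (Eg5), which pushes the spindle poles apart, was at 2.55. Kif2c, which takes microtubules apart at centromeres, was at 2.00. Kif22 and Kif4, motors that bind chromosome arms, were at 1.78 and 1.37. Kif23 and Kif20a, motors of the midzone and cytokinesis, were at 1.60 and 1.29. Kif20b, a kinesin of late cytokinesis, was at -1.99, the lowest of the 56 and higher than 0.835% of all genes.

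Bub1 and Kif20b were the 2 members with a mean below 0, as were 1198 genes (8.55%) of the whole table. The methods state a filter of more than 1 CPM in at least 3 samples. If the filter was applied to these 6 libraries alone, the libraries below it would average less than -3.98 log2 CPM for Kif20b and less than -1.78 for Bub1. The same arithmetic would put them below -8.15 for the lowest gene of the table, and whether the filter covered these 6 libraries alone is not known here. How far the 2 genes varied between mice therefore cannot be told from the pooled means.

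Comparing levels between genes requires transcript length, since longer transcripts give more reads. Dividing by the longest coding transcript in kb (GENCODE M21, matched by symbol) gave a median of 1.38 mean log2 CPM per kb for the 56 members against 2.28 for all genes with a length. As many members as before, 15 of 56, lay above the all-gene median on this scale. Ccnd3, Pcna, Cdk4 and Stmn1 had the highest levels per kb, at 5.25, 5.01, 4.91 and 4.41. On this scale long genes moved down the order. Mki67, with a transcript of 10061 bases, came to 1.08 per kb, and Cenpf and Cenpe came to -0.81 and -0.49, whereas Cenpa, with 1466 bases, came to 2.31.

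**Figure D2:**
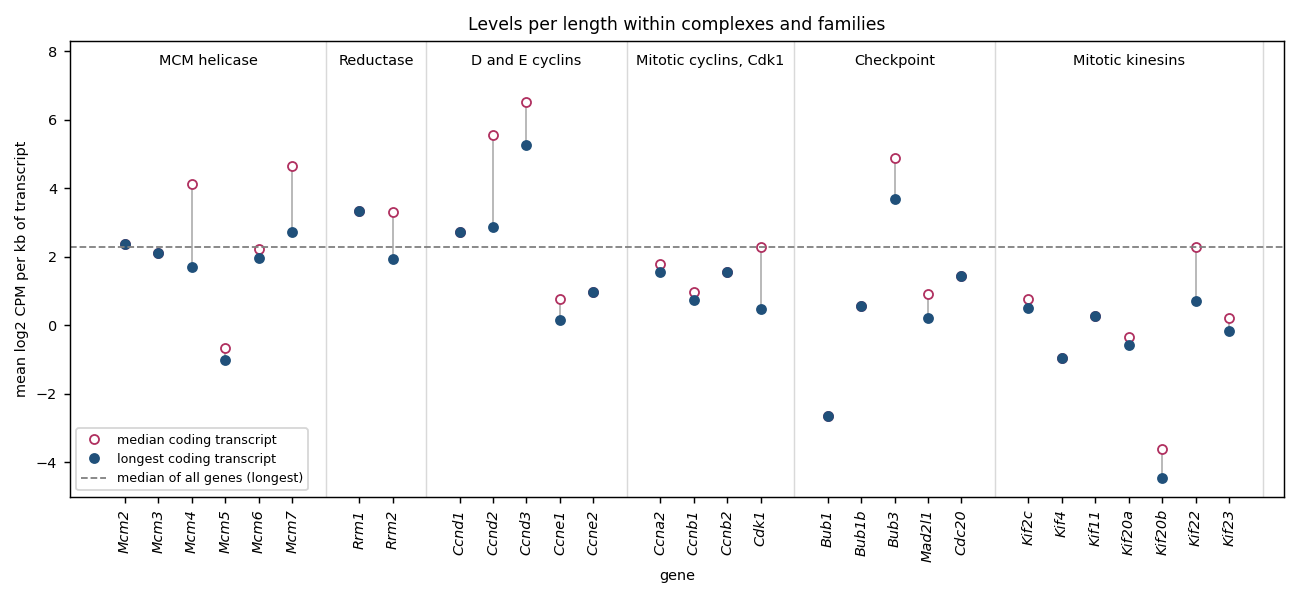
Mean log2 CPM per kb of transcript over the 6 libraries for members of 6 complexes and families, with filled points for the longest coding transcript, open points for the median coding transcript, and a dashed line at the all-gene median on the longest-transcript scale. Mcm5, Bub1 and Kif20b lie below every other gene of their panel on both scales, and Ccnd3 and Bub3 lie above every other gene of theirs.

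Mean levels per kb differed between subunits of a single machine, by amounts that depended on the transcript taken for the length. In the MCM helicase, whose subunits assemble one to one, levels per kb of the longest transcript lay between 1.69 (Mcm4) and 2.73 (Mcm7) for the other subunits, and Mcm5 was at -1.01. On the median transcript they lay between 2.10 (Mcm3) and 4.63 (Mcm7), and Mcm5 was at -0.66. Mcm2 was thus 10.3-fold above Mcm5 on the longest and 8.11-fold on the median transcript. For Mcm4 the corresponding folds over Mcm5 were 6.48 and 27.7. The median transcript of Mcm4 had 658 bases against 3589 for its longest, and that of Mcm7 had 795 against 2962. Whether such short annotated transcripts are full-length was not tested, so values on the median transcript carry that limit. The mean of Mcm5 was 0.75, higher than 13.4% of all genes, and how alike its libraries were cannot be told. The folds over Mcm5 carry that limit. Whether the authors' assignment of transcripts to genes affected the level of Mcm5 was not tested. Of the Mcm5 sequence, 2.09% of 31-base words occur in other genes, and of the Mcm2 sequence none.

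In ribonucleotide reductase, Rrm1 at 3.33 per kb was 2.65-fold above Rrm2 at 1.93 on the longest transcript. On the median transcript they came to 3.33 and 3.31, since the median Rrm2 transcript is shorter, at 841 bases against 2193. Whether it is full-length was not tested. In the checkpoint, Bub3 at 3.68 per kb was 8.64-fold above Bub1b at 0.57, and 19.9-fold above it on the median transcript. Mad2l1 came to 0.21 and Bub1 to -2.66 on the longest transcript. No fold is given for Bub1 or Kif20b, whose means below 0 may pool unlike libraries.

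Among cyclins, Ccnd3 was 5.84-fold above Ccnd1 per kb of the longest transcript and 13.9-fold on the median one. Ccnd2 at 2.87 and Ccnd1 at 2.71 differed by 0.16 on the longest transcript, while on the median transcript Ccnd2 came to 5.54 and Ccnd1 stayed at 2.71. The order Ccnd3, Ccnd2, Ccnd1 was the same on both. Ccne2 and Ccne1 came to 0.98 and 0.16 per kb. Cdk4 was 7.71-fold above Cdk2 on the longest and 14.3-fold on the median transcript. On the longest transcript the mitotic cyclins Ccna2, Ccnb2 and Ccnb1 came to 1.54, 1.54 and 0.74, and their kinase Cdk1 to 0.47. On the median transcript this order turned, with Cdk1 at 2.27 above Ccna2 at 1.80, Ccnb2 at 1.54 and Ccnb1 at 0.96. Aurka was 2.33-fold above Aurkb, and 2.26-fold on the median transcript. Within the kinesins, Kif11 came to 0.28 per kb, and Kif20b to -4.47 on the longest and -3.61 on the median transcript.

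Some of these levels are uncertain because the genes share sequence with others. In 14 of the 56 members, over 20% of the 31-base words of the longest transcript occur in another gene. A read made up only of such words cannot be placed by sequence alone. How many reads were of that kind is not known here. The share of such words was 70.5% in Gins2, most of it with Gse1. It was 47.6% in Mcm7, 46.9% in Ccnb1 (most with its pseudogene Ccnb1-ps) and 42.6% in Stmn1. It was 38.0% in Pcna, most with Pcna-ps2, and 32.6% in Kif20a. Cdk4, Prc1 and Ccnd3 had 31.3%, 30.9% and 29.6%, most with Tspan31, Rccd1 and Bysl. Cdc20, Ccnd1, Ube2c, Hmgb2 and Tyms had 28.7%, 28.1%, 25.1%, 24.9% and 21.5%. At the other end, 13 members shared no word with any other gene, among them Bub1, Kif20b, Rrm1, Cdk2 and Cdt1.

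CHR and NF-Y words stood in a larger share of the members' promoters than of other promoters, which is a description with no test. A CHR word stood in the windows of 25 of 45 members (55.6%), against 16.4% of the 10365 listed genes with a window and 19.2% of all 32851 windows. An NF-Y box stood in 33 of 45 (73.3%), against 42.4% of listed genes and 37.4% of all windows. Both together stood in 23 of 45 (51.1%), against 6.81% and 7.52%. An E2F word stood in 8 of 45 (17.8%), against 4.44% and 2.26%. The TATA box (TATAAA) was the exception, found in Kif2c alone (2.22%), against 9.21% of listed genes and 13.6% of all windows. All words were searched on both strands, TTCGAA reads the same on both and was counted once, and words that share bases were each counted. The members' windows were also richer in G and C, at 60.1% against 53.8% in all windows. The part of base composition in these shares was not tested.

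**Figure D3:**
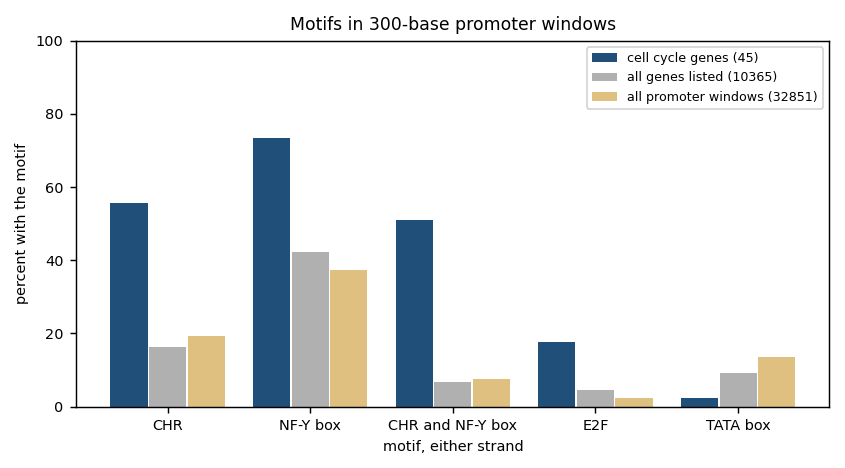
Percent of genes or windows that hold each word on either strand in the 300-base promoter window, for the 45 cell cycle genes with a window, the 10365 listed genes with a window and all 32851 windows. The cell cycle genes have the tallest bar for the CHR (55.6%), the NF-Y box (73.3%), both together (51.1%) and E2F (17.8%), and the shortest for the TATA box (2.22%).

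The words were spread unevenly over the roles. Every one of the 6 kinesins with a window held a CHR word, as did 5 of 6 checkpoint and exit genes, all 3 chromatin genes, 3 of 4 mitotic entry genes and 3 of 4 mitotic kinase genes. So did 2 of 3 centromere genes and 1 of 2 spindle genes. Among G1 genes (0 of 5) and nucleotide supply genes (0 of 4) no CHR word was found. In the replication genes it was found in 2 of 8, Mcm2 and Mcm7. E2F words stood in 6 of the 8 replication genes, namely Cdc6, Cdt1, Mcm3, Mcm5, Mcm6 and Mcm7, and otherwise only in Cdk2 and Cdk1. Of the members, 23 had a CHR word without an E2F word, 6 an E2F word without a CHR word, and 2, Cdk1 and Mcm7, had both. None of the 3 words was found in 8 members (Birc5, Mad2l1, Nusap1, Ccne1, Cdk4, E2f1, Tk1 and Tyms), which says only that these letters are not in these windows.

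Positions and numbers of words within a window were counted for the members only. Without the same counts for other promoters, they are no trait particular to the members. In 23 of the 25 genes at least 1 CHR word began between 100 bases before the start and the end of the window, and in 15 genes at least 1 began before the start. In Cdk1, whose stretch is shown above, CHR words began 71 and 15 bases before the start and an E2F word 131 before it. In Cdc20 the CHR word began 18 bases before the start, in Kif11 19 and in Kif22 17. Top2a held 4 CHR words, and 8 members in all held several in one window. Several NF-Y boxes in one window were found in 21 members.

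**Figure D4:**
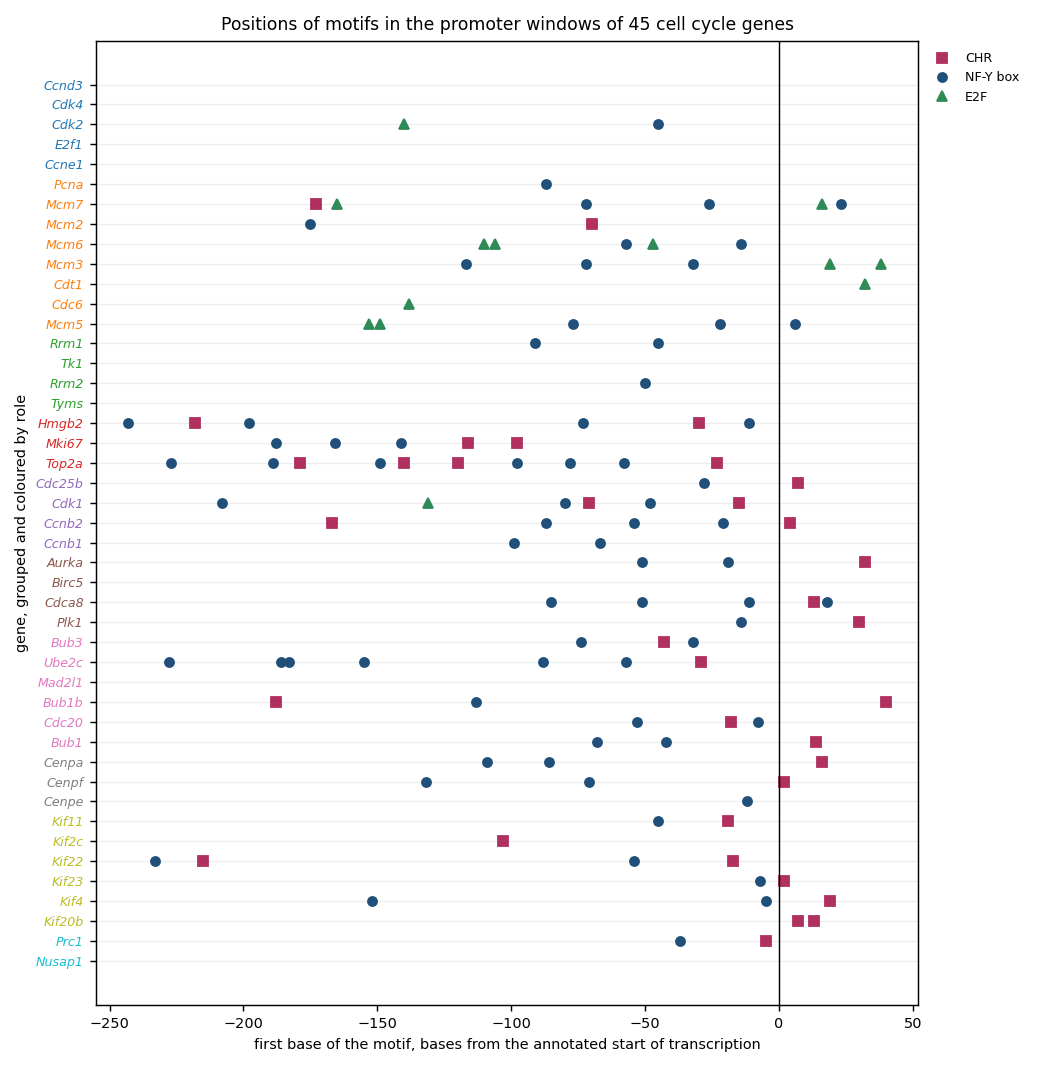
Position of the first base of each CHR word (squares), NF-Y box (circles) and E2F word (triangles) in the promoter window of each of the 45 members, in bases from the annotated start of transcription at 0 and negative before it, with genes coloured and ordered by role as in the plot of levels; for 4 genes with 2 windows the first is drawn. Squares lie in most of the lower rows, which are mitotic genes, but not in Ccnb1, Birc5, Mad2l1, Cenpe and Nusap1. They also lie in the chromatin rows and in Mcm2 and Mcm7. Triangles lie in most of the replication rows and in Cdk2 and Cdk1.

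Median levels were set side by side for members with and without a word, and the differences were not tested. The median level was 2.60 mean log2 CPM in the 25 genes with a CHR word and 2.86 in the 20 without. For the NF-Y box it was 2.86 with and 2.29 without, and for E2F 2.92 with and 2.65 without. Mcm5, with 2 E2F words before the start, was the lowest replication gene at 0.75, while Mcm6, with 3 in its window, was at 4.07. Likewise, a CHR word stood in Bub3 at 5.46 and in Kif20b at -1.99, the highest and the lowest mitotic genes of the set. These medians carry no error.

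The wider pathway lay at a similar level. Of 75 further cell cycle genes listed by function, 72 were in the table, with a median of 2.73 mean log2 CPM, and 19 of them lay above the all-gene median. Other replication genes, 26 of 26 listed, had a median of 2.94, and other mitotic genes, 23 of 25, a median of 2.32. The mitotic genes Knl1 and Sgo1 were not listed. Among the factors that act on E2F and CHR elements, 16 of 17 were listed, with a median of 2.79, and Lin54, the MuvB subunit that binds the CHR, was not listed. Foxm1 and Mybl2, activators of mitotic genes, were at 2.14 and 1.15. Of the factors known from the repressive complex, Rbl2 and E2f4 were at 5.46 and 5.20, Lin52, Lin37 and Lin9 at 3.27, 3.10 and 2.70, Rbl1 and E2f5 at 2.89 and 2.21, and Tfdp2 and Tfdp1 at 5.05 and -0.29.

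Inhibitors of the cycle were the exception, with a median of 4.81 over 7 genes. Cdkn1a (p21), the inhibitor of cyclin-dependent kinases known to rise as myoblasts leave the cycle, was at 7.62, above each of the 56 members. Cdkn1c (p57), which acts with it in muscle differentiation, was at 7.14, and Cdkn1b (p27) was at 5.71. Cdkn2c (p18), an inhibitor of Cdk4 and Cdk6, was at 4.81. Cdkn2b, Cdkn2a and Cdkn2d were low, at 1.77, 0.32 and -0.60. Per kb of the longest transcript, Cdkn1a at 6.56 and Cdkn1c at 6.22 stayed above Ccnd3 at 5.25. Ccnd3 was higher per kb of the median transcript, and whether the order holds on that scale was not tested.

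The table carried the marks of muscle. The 5 fibre genes Acta1, Ckm, Mb, Tnnt3 and Myh4 ran from 10.70 to 14.65 and summed to 65768 CPM. Markers of cell types other than the mature fibre were present as well, and whether those cells were dividing was not tested. Of the myoblast genes, Myod1 and Myog were at 5.55 and 6.37, and Pax7 and Myf5, which mark satellite cells, at 2.77 and 2.17. Macrophage genes (3 of 4 listed) ran from 5.05 to 6.15, fibroblast genes (3 of 3) from 5.73 to 11.67, and the endothelial genes Pecam1 and Cdh5 were at 6.41 and 6.53. T cell genes were low, from -0.72 to 1.73. Of the neutrophil genes 2 of 3 were listed, at -0.50 and 0.52. Red cell genes ran from 2.36 to 7.53. None of the 5 eosinophil genes and none of the 2 B cell genes was listed. Which of these cells contributed the cell cycle RNA was not tested.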

How the data were processed

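Quadriceps RNA of 3 WT and 3 ΔdblGATA mice was sequenced as paired ends after polyA selection with ERCC spike-in. The authors pseudoaligned reads with Kallisto, summed transcripts to genes in R and computed CPM with edgeR. They retained a gene where 3 or more libraries exceeded 1 CPM, took logs and normalized by TMM. The deposited log2 values used here are the authors' mean of log2 CPM over the 6 libraries, one per gene, for 14016 rows, of which 1 has no symbol. The submitters' processing notes name GRCm39 and mm39. The table's other columns hold the authors' own comparison of the genotypes (fold change, moderated t, p-values and log odds) and were not used. Values of single mice were not analysed here, so the comparison of genotypes that had been planned was not run. Depth per library is unknown, 3 mice per genotype limit the precision, and nothing was tested between groups.

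Lengths came from GENCODE M21 (GRCm38), matched for 13940 genes (99.5%), of which 482 through synonyms. The table has no coordinates, so none were converted. Shared sequence is the percent of 31-base words of the longest coding transcript also found, on either strand, in any transcript of another gene. Promoter windows are RefSeq GRCm38.p6, matched by symbol. Among the members, Ccne2, Mcm4, Kif20a, Rb1, Ccnd1, Aurkb, Ccna2, Stmn1, Ccnd2, Gins2 and Tpx2 had none. Analyses used Python 3.11.15, numpy 2.4.6 and pandas 2.3.3, and scripts were tested on simulated data. Every listed member is named, and other genes come from lists chosen by function. The members and lists were chosen with earlier results of these data known.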

Additional observations from a re-analysis of the deposited data

How the results depend on the processing

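Values are differences between a group's median and the all-gene median, in log2. With only genes of at least 1 mean log2 CPM, they were 0.19 for G1 genes, -0.65 for replication, -1.12 for nucleotide supply, 0.0058 for chromatin and tubulin proteins, -1.82 for mitotic cyclins and entry, -2.40 for mitotic kinases, -1.29 for checkpoint and exit, -1.75 for centromere, -2.73 for kinesins, -1.22 for spindle proteins and -1.36 for all members. Per kb of the longest coding transcript they were, in the same order, 0.43, -0.40, 0.19, 0.090, -0.74, -1.41, -1.26, -2.76, -2.44, -1.13 and -0.90. Per kb of the median coding transcript they were -0.11, -0.66, 0.50, 0.097, -1.03, -1.28, -1.64, -1.73, -2.60, -1.51 and -1.02. The sign thus turned for nucleotide supply under both length scales and for G1 genes under the median transcript, and it held for each other group under these 3 settings. The cause was not tested. The other pathway genes stayed at -1.30 with the minimum level. Per kb, settings added after seeing the data, they were at -0.92 on the longest and -0.90 on the median transcript.

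On the gene's own strand only, the NF-Y box was found in 51.1% of members, against 24.6% of listed genes and 21.1% of all windows. The CHR with the NF-Y box was found in 26.7% of members on that strand, against 2.29% and 2.56%. With a window from 150 bases before the start, the TATA box was found in 0 of 45 members (0%), against 5.62% of listed genes and 8.91% of all windows. The other 7 shares stayed within the 95% exact binomial interval of the value reported.

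No paired analysis was possible because the table holds no values for single mice. For the same reason the planned comparison of ΔdblGATA with WT, leaving out each replicate, and the other pseudocount and filter for it were not run. The pooled means give no spread between mice, and depth is unknown, so no difference between 2 genes here has an error.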
